A study of Homo sapiens with 12 samples.

Results

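TIMP1 KO 1 is a knockout clone of MIA PaCa-2, a cell line from a human pancreatic carcinoma, and it was compared with the unmodified line it came from (WT), to ask which transcripts differ once TIMP1 has been edited. The comparison uses 6 of the 12 libraries of the series, the 3 labelled TIMP1 KO 1 and the 3 labelled WT, and every gene whose mean normalised count over the 12 libraries was at least 10, which was 15987 of the 63086 genes in the table. A normalised count is the number of reads of a gene divided by a size factor of its library, so that typical genes stand at the same level in each library. KO 1 was made with CRISPR-Cas9, a nuclease that cuts DNA where its guide RNA pairs with it, aimed at exon 4 of TIMP1. Guides against different stretches of that exon were used, and which of them gave KO 1 is not given in the sources used here. The other lines were a second knockout clone (KO 2) and a CRISPR Control line, which went through the editing and kept the protein sequence with a silent base change. All lines were grown in the same medium, total RNA was taken, and each line gave 3 libraries. Each edited line is a single line, so what the loss of TIMP1 did and what sets 1 clone apart from its parent cannot be told apart in this comparison. The titles call the libraries of a line biological replicates. Nothing else says that they came from separate cultures, so p-values measure the spread between these libraries, which may be technical.

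Depth ran from 26908701 to 36093563 reads in genes per library. Among markers of a mesenchymal carcinoma line VIM was abundant, with 70742 ± 1634 normalised counts in WT and 93176 ± 1729 in KO 1 (mean ± SD, n = 3 each, as in all such values below). KRT8 and KRT18 were abundant too, with means of 129995 and 54161 in WT, and ZEB1 had 1226. Markers of classical ductal cells ranged widely in WT, with means of 15707 for KRT19, 1890 for EPCAM, 79.2 for TFF1 and 18.8 for GATA6. CFTR had 0 reads in all 6 libraries. CDKN2A and CDKN2B, tumour suppressor genes that MIA PaCa-2 is known to have lost, had 0 reads in all 12 libraries. The hormone genes INS and SST and the acinar enzyme genes CELA3A and AMY2A also had 0 reads throughout. Markers of leukocytes summed to between 36 and 58 reads per library in WT and between 77 and 87 in KO 1, of which CD14 alone gave 30 to 45 and 76 to 86. Of the 6 leukocyte markers 3 had no more than 3 reads in any of the 12 libraries, and their part in the results below was not tested. DCN and LUM, which define fibroblasts, had 0 reads in all 6 libraries, whereas COL1A1 was abundant in both lines. Further fibroblast markers were present as well. THY1 had 924 to 1213 reads per library and did not pass the test (log2 0.05, limma adjusted p 0.709). PDGFRB had 9 to 50 reads and was higher in KO 1 (log2 1.19, limma adjusted p 0.00979). PDGFRA had 4 to 25 reads and was lower (log2 -1.47, limma adjusted p 0.0327).

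TIMP1 encodes a secreted inhibitor of matrix metalloproteinases, enzymes that cut collagen and other matrix proteins, and the protein also acts as a signal on cell surfaces. Cells that sense foreign or misplaced nucleic acid make interferons, which switch on a large set of antiviral genes through a DNA element in their promoters, and MHC class I molecules rise in the same response. The genes that copy DNA are switched on together before S phase by the E2F transcription factors, which CDK inhibitors such as CDKN1A hold back.

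In KO 1 the TIMP1 transcript lay at 45.0% of its WT level. Normalised counts were 3837, 3290.2 and 3532 in WT replicates 1 to 3 and 1562, 1624 and 1613 in those of KO 1. The 2 groups did not overlap, with a log2 difference of -1.15 between their means (SE 0.09, limma adjusted p 7.24e-09). KO 1 also lay below CRISPR Control, with a log2 difference of -0.74 (limma adjusted p 6.5e-07), and above KO 2, with one of 0.46 (limma adjusted p 0.000398). On this scale the mean of CRISPR Control, which kept the protein sequence, lay between those of WT and KO 1. All log2 fold changes are differences of means of log2(normalised count + 1), which understates the change of genes with few reads. The gene (ENSG00000102265.12) is on the plus strand, at chrX:47582408-47586789 (GRCh38), and the genes SYN1 and ENSG00000283743 overlap it on the other strand. Whether reads were counted by strand is not given in the sources used here, so genes that overlap on opposite strands may share reads, here and elsewhere. The edited exon, exon 4 of 6 of the main GENCODE transcript, lies at chrX:47585205-47585331 and is coding throughout. Its 127 bases hold codons 68 to 109 of 207 and 1 base more, and are printed as the stretch of the genome that the guides were aimed at. The base changes in the clone were not analysed here.
TIMP1 exon 4: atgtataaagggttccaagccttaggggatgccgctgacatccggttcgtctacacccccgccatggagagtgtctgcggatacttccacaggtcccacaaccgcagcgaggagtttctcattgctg

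In all, 5682 of the 15987 genes tested (35.5%) differed between KO 1 and WT at a limma adjusted p under 0.05. Of these, 2883 (18.0%) were higher and 2799 (17.5%) lower in KO 1. About as many rose as fell, and most changes were small. The absolute log2 fold change was under 0.5 for 2861 of the called genes (50.4%), from 0.5 to 1 for 1509, from 1 to 2 for 817 and from 2 to 3 for 278. The 217 genes past 3 were unevenly divided, with 39 higher and 178 lower, so that steep losses outnumbered steep gains. All 3 KO 1 libraries lay on 1 side of all 3 WT libraries for 8407 genes (52.6%), and for 1740 (10.9%) they lay on 1 side of all 9 other libraries of the series. In RNA from a whole culture, fewer cells that express a gene and less of its RNA per cell cannot be told apart. For scale, CRISPR Control against WT called 8541 genes (53.4%), KO 1 against CRISPR Control 10070 (63.0%) and KO 1 against KO 2 6100 (38.2%).

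**Figure D1:**
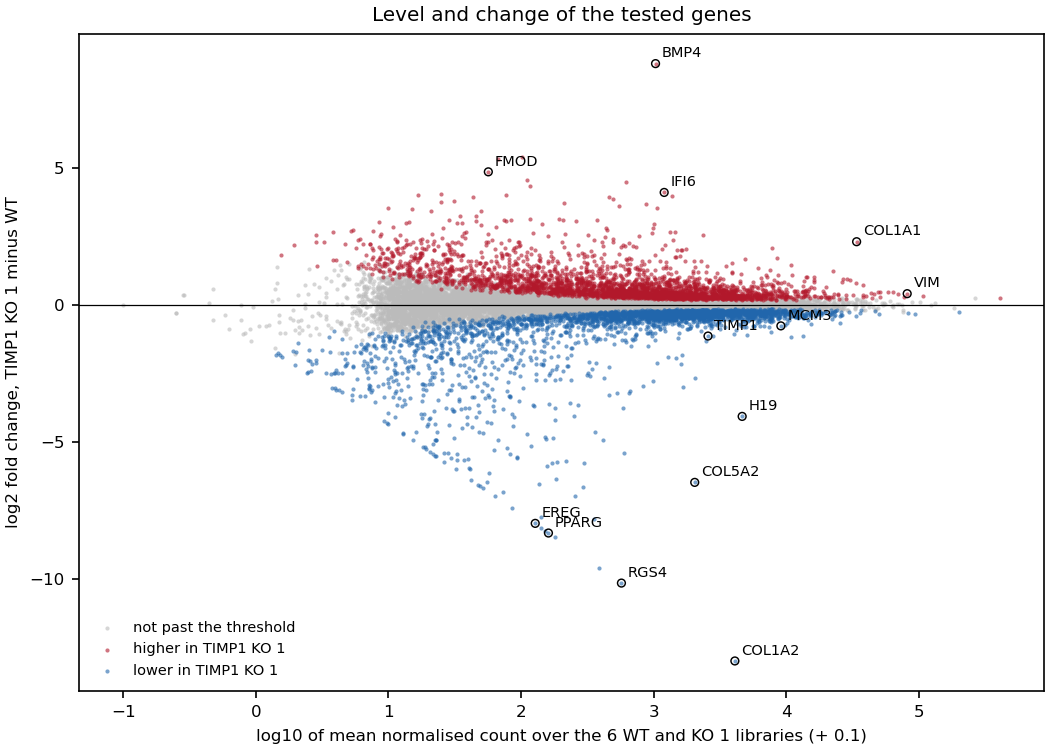
Each point is a tested gene (genes of chromosome Y and XIST are not drawn), with the log10 of its mean normalised count over the 6 libraries of WT and KO 1 on the x axis and the log2 fold change of KO 1 against WT on the y axis, coloured by the call at a limma adjusted p under 0.05. BMP4 stands alone at the top at 8.79 and COL1A2 at the bottom at -13.004. The slanted lower edge holds genes with no or almost no reads in KO 1, whose value depends on the 1 added before taking logs.

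**Figure D2:**
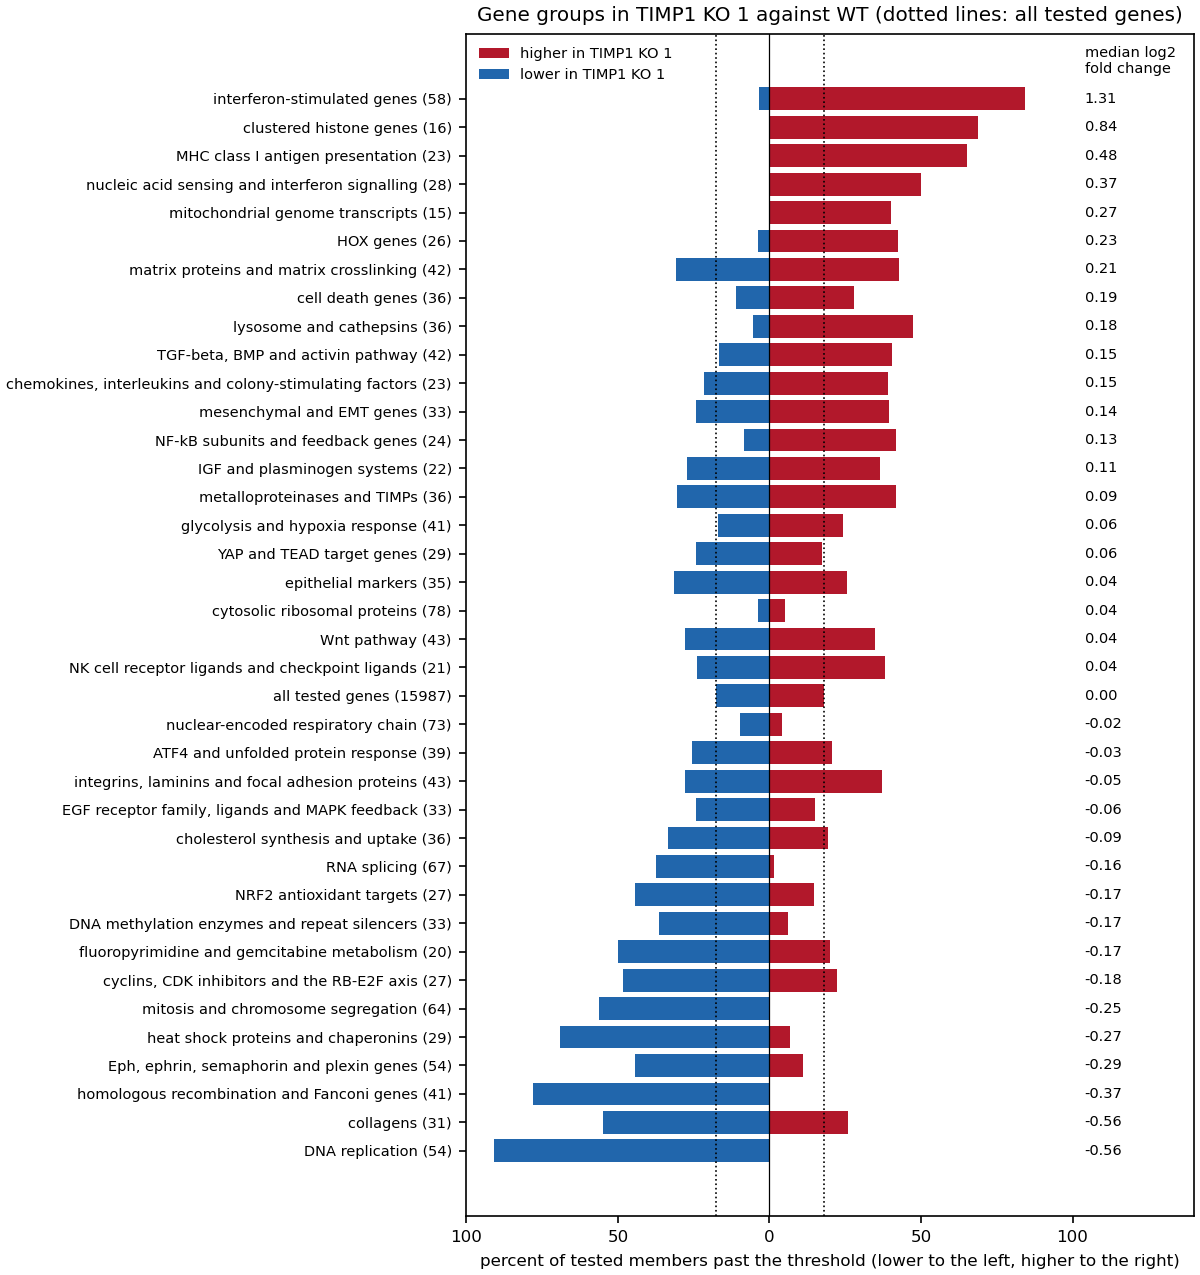
Each bar gives the percent of the tested members of a gene group (number in parentheses) that were higher (right) or lower (left) in KO 1 than in WT, with the median log2 fold change of the members at the right edge. Dotted lines mark the 18.0% higher and 17.5% lower among all tested genes. Interferon-stimulated genes (median 1.31) and DNA replication (median -0.56) stand at the 2 ends.

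Antiviral genes rose together, with the highest median change of the 38 gene groups examined. Of 58 interferon-stimulated genes tested, 49 were higher and 2 lower in KO 1, against 18.0% and 17.5% of all genes, and their median log2 fold change was 1.31 beside 0.00 for all tested genes. IFI6, an antiviral protein of mitochondria and the endoplasmic reticulum, had normalised counts of 139, 141 and 112 in WT and 2579, 2561 and 1689 in KO 1. It was 17.4-fold higher (log2 4.09, SE 0.14, limma adjusted p 7.94e-14). MX1, a GTPase that traps viral nucleocapsids, stood at 52.1, 55.5 and 56.2 in WT and 730.3, 1195 and 699.6 in KO 1, higher by 3.93 on the log2 scale (SE 0.16, limma adjusted p 7.94e-13). The WT libraries were tight for both genes, while KO 1 replicate 2 was the highest of its line for MX1 and replicate 3 the lowest for IFI6. OAS2, which makes the second messenger that activates RNase L, rose from 15.1 ± 0.381 to 138 ± 49.9 (3.05 on the log2 scale, limma adjusted p 4.87e-10), and ISG15, a ubiquitin-like modifier, rose from 459 ± 15.1 to 1399 ± 194 (1.60, limma adjusted p 4.36e-09). The 2 members that fell were IFITM2, which blocks virus entry in endosomes, at 611, 530.03 and 568 in WT and 119.9, 108 and 107 in KO 1 (-2.34, limma adjusted p 1.35e-10), and OASL, which strengthens RNA sensing (-0.94, limma adjusted p 0.0012).

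Between WT and KO 2, KO 1 took an intermediate place. The median of the 58 members relative to the WT mean was 1.22, 1.38 and 1.25 on the log2 scale in the 3 KO 1 libraries, between 3.32 and 3.46 in those of KO 2, and between 0.12 and 0.22 in those of CRISPR Control. By the direct contrast 55 of the 58 were lower in KO 1 than in KO 2 and 0 were higher, beside the 38.2% of all genes that differed in either direction between these clones. For IFI6 that contrast was -3.20 (limma adjusted p 4.19e-12), and KO 2 held 20683 ± 3292 normalised counts. Against WT, CRISPR Control had 23 members higher and 17 lower, beside 53.4% of all genes that differed in either direction.

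Promoters of this group are shown because the genes rose together. Of the 44 members with a promoter in the RefSeq table (GRCh38.p14, 250 bases before to 50 after the start), 29 (65.9%) held the core GAAANNGAA of the interferon-stimulated response element on either strand, beside 726 of 11486 promoters of tested genes (6.32%) and 8.29% of all 27305 promoters. Of the 29 members with the core 26 were higher (median log2 fold change 1.30), and of the 15 without it 13 were (median 1.38). A match of letters is a description and not a shown site. The stretches below run from 20 bases before the first to 20 bases after the last match, or to base 30 of the transcript, 5′ to 3′ on the strand of the gene, with the matches in capitals. IFI6 lies at chr1:27672257-27672368 (minus strand), MX1 at chr21:41420549-41420587 (plus strand), ISG15 at chr1:1013364-1013424 (plus strand) and IFIT1 (chosen after its values were seen, log2 0.40, limma adjusted p 0.00507) at chr10:89392488-89392549 (plus strand).
IFI6 promoter: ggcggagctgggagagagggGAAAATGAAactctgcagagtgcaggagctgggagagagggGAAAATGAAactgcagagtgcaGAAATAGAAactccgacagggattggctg
MX1 promoter: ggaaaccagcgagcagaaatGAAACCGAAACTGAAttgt
ISG15 promoter: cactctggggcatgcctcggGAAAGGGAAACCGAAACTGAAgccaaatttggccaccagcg
IFIT1 promoter, with the core on the opposite strand: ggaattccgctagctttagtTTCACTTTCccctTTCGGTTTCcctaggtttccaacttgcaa

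Genes of sensors and signalling proteins upstream of interferon had a lower median change. Of 28 tested, 14 were higher and 0 lower, beside 18.0% and 17.5% of all genes, with a median of 0.37. IFIH1, the sensor of long double-stranded RNA, stood at 141, 147 and 131 in WT and 556, 565 and 498 in KO 1 (1.94, limma adjusted p 2.54e-11). RIGI, the sensor of RNA ends, was low and did not pass the test (12.5 ± 4.24 in WT, 17.97 ± 8.27 in KO 1, limma adjusted p 0.337). Transcripts of the interferon lambda genes were near the detection limit. IFNL1 had 2.26, 0 and 0 normalised counts in WT and 16.2, 6.75 and 5.30 in KO 1 (limma adjusted p 0.00178), and IFNL3 had 0 in every WT library and a mean of 3.66 ± 1.22 in KO 1 (limma adjusted p 0.00839, and 0.116 with 10 in place of 1 added before the log).

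Antigen presentation by MHC class I rose in 15 of 23 genes tested and fell in 0, beside 18.0% and 17.5% of all genes (median 0.48). HLA-B, a heavy chain that presents peptides to T cells and is also read by NK cell receptors, was at 627, 592 and 576 in WT and 2453, 2385 and 2346 in KO 1, 4.002-fold higher (2.000, SE 0.11, limma adjusted p 3.74e-11). NLRC5, the transactivator of these genes, rose from 44.8 ± 5.49 to 136 ± 15.6 (1.58, limma adjusted p 4.84e-07). Near-identical HLA genes may share reads, so their separate values are uncertain. Among 21 genes of ligands for NK cell receptors and checkpoints, 8 were higher and 5 lower (median 0.04). Their median relative to the WT mean was -0.06, 0.20 and 0.25 in the 3 KO 1 libraries, which differed among themselves by more than the size of the change, and over all 3 it was -0.03 under quantile normalization. ULBP1, a ligand of the activating receptor NKG2D, rose from 81.1 ± 15.04 to 179 ± 26.7 (1.14, limma adjusted p 1.71e-05), while ULBP2, another, fell (-0.65, limma adjusted p 0.0135, and 0.0770 without WT replicate 2). MICA and MICB, 2 further NKG2D ligands, did not pass the test (-0.21 and -0.13, limma adjusted p 0.145 and 0.271). PVR, the ligand of TIGIT and DNAM-1, was lower at 2649 ± 26.2 against 3687 ± 84.6 (-0.48, limma adjusted p 2.68e-05), and NT5E, which makes the suppressive metabolite adenosine, was higher at 21244 ± 841 against 11279 ± 428 (0.91, limma adjusted p 1.25e-08).

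**Figure D3:**
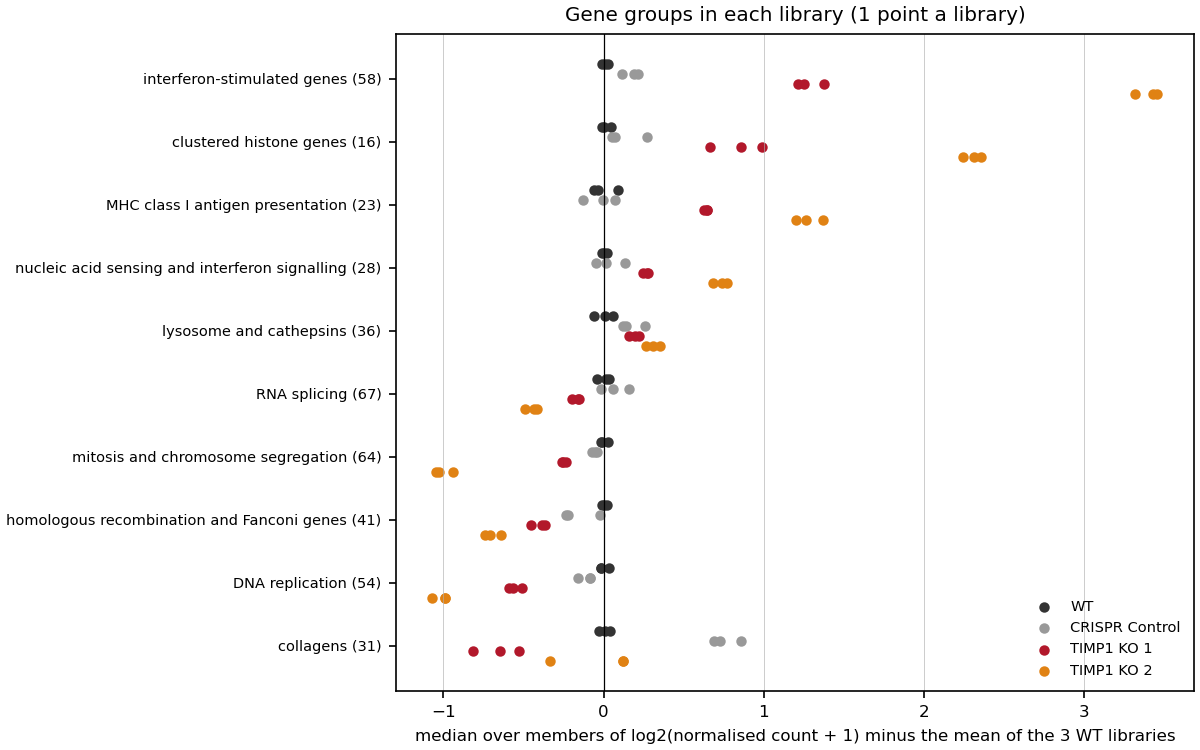
For 10 gene groups (number of tested members in parentheses), each point is 1 library, placed at the median over members of log2(normalised count + 1) minus the mean of the 3 WT libraries. The 3 KO 1 points of interferon-stimulated genes lie between 1.22 and 1.38 and those of DNA replication below 0, in both groups between the WT points and those of KO 2.

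Genes that copy DNA fell together, and by modest amounts. All members that passed the test, 49 of 54, were lower in KO 1, against 17.5% of all genes, with a median of -0.56 and only GINS2 past 1 in size. MCM3, a subunit of the replicative helicase, was at 12419.9, 11029 and 11196 in WT and 6771, 6736 and 6667 in KO 1, which is 1.72-fold lower (-0.78, SE 0.07, limma adjusted p 3.24e-08). The lowest WT library lay far above the highest KO 1 library. MCM2, another subunit, fell from 7227 ± 376 to 4171 ± 330.3 (-0.79, limma adjusted p 6.88e-07), and GINS2, which joins the helicase at the fork, was at 1388, 1193 and 1194 in WT and 564, 611 and 652 in KO 1 (-1.04, limma adjusted p 1.77e-07). TYMS and TK1, which supply thymidylate, fell by less (-0.43 and -0.59, limma adjusted p 0.000842 and 0.000227). By the direct contrast 47 of the 54 genes were higher in KO 1 than in KO 2, beside 38.2% of all genes that differed in either direction. In CRISPR Control 21 members were lower and 3 higher than in WT, with a median of -0.08, beside 53.4% of all genes that differed.

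Letters of an E2F site (TTTCCCGC, TTTGGCGC, TTTCGCGC or TTTGCCGC, either strand) stood in 21 of the 46 replication promoters with a RefSeq sequence (45.7%), beside 606 of 11486 promoters of tested genes (5.28%) and 3.33% of all promoters. Of the 21 with a match 20 were lower (median -0.60), and of the 25 without one 22 were (median -0.50). The 2 printed stretches are those of MCM2, at chr3:127598393-127598440 (plus strand), and MCM3, at chr6:52284719-52284936 (minus strand), with the matches in capitals. In MCM2 the matches on the 2 strands overlap.
MCM2 promoter: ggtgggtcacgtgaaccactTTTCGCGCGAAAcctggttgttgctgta
MCM3 promoter: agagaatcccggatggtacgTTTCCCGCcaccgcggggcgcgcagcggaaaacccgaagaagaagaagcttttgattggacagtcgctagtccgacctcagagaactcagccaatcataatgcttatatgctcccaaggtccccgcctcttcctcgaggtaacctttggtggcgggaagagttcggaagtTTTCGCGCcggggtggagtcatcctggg

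Genes of mitosis had a smaller median change. Of 64 mitosis and chromosome segregation genes, 36 were lower and 0 higher, beside 17.5% and 18.0% of all genes (median -0.25). In KO 1 62 were higher than in KO 2, beside the 38.2% of all genes that differed. AURKB, the kinase of the chromosomal passenger complex, fell from 3066 ± 345 to 2009 ± 156 (-0.61, limma adjusted p 2.15e-05), and FOXM1, which drives mitotic genes, from 5724 ± 354 to 3818 ± 304 (-0.59, limma adjusted p 7.18e-05). CCNB1, the mitotic cyclin, was at 9041, 9014 and 8555 in WT and 8607, 8671 and 8364 in KO 1 and did not pass the test (-0.05, limma adjusted p 0.579), and neither did CDK1 (-0.19, limma adjusted p 0.118). The E2F site was in 5 of 55 promoters of this group (9.09%). Homologous recombination and Fanconi genes were lower in 32 of 41 and higher in 0 (median -0.37). FANCD2 fell from 2086 ± 96.8 to 1213 ± 19.5 (-0.78, limma adjusted p 1.02e-06).

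Among the regulators of S phase entry, a pair of CDK inhibitors rose and E2F1 fell. Of 27 genes of cyclins, CDK inhibitors and the RB-E2F axis, 6 were higher and 13 lower, beside 18.0% and 17.5% of all genes (median -0.18). The log2 fold changes of this list ran from -2.002 to 1.58, and 1 member, not named here, was called lower by at least 1. CDKN1A, the p21 inhibitor of cyclin-dependent kinases, was at 1183, 1160.1 and 1078 in WT and 3430.1, 3401 and 3427 in KO 1, 2.999-fold higher (1.58, SE 0.08, limma adjusted p 8.81e-12), and it did not pass the test between KO 1 and KO 2 (0.06, limma adjusted p 0.571). E2F1, the founding E2F factor, was at 5922, 5244 and 5385 in WT and 3038, 2605 and 2981 in KO 1 (-0.94, limma adjusted p 1.12e-07). CDKN1B, another inhibitor, rose by 0.37 on the log2 scale (limma adjusted p 0.00175). Clustered histone genes, whose transcripts peak in S phase and mostly lack a poly(A) tail, were higher in 11 of 16 and lower in 0 (median 0.84). H2AC6, which codes for a core histone that near-identical genes also encode, was at 259, 358 and 311 in WT and 935, 979 and 949 in KO 1 (1.63, limma adjusted p 7.26e-10).

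The highest single change was that of BMP4, a secreted ligand of bone morphogenetic protein receptors. It had 2.26, 3.64 and 5.72 normalised counts in WT and 2094, 2134 and 1974 in KO 1, 534-fold higher (8.79, SE 0.23, limma adjusted p 1.48e-15). WT was close to silent, and the KO 1 libraries differed little among themselves. KO 2 held 164 ± 29.9 and CRISPR Control 13.3 ± 1.29, so that KO 1 was above both (log2 3.66 and 7.18, limma adjusted p 3.65e-10 and 2.32e-15). BMP4 lies on the minus strand at chr14:53949736-53958761. The 3 next tested genes above it on the chromosome, CDKN3, CNIH1 and GMFB (named after their values were seen), were also higher but by far less, with log2 fold changes of 0.94, 0.53 and 0.35. ID1, a target gene of BMP signals, was at 5873, 5477 and 5559.8 in WT and 11726, 11574 and 12027 in KO 1 (1.06, limma adjusted p 2.1e-08). BMP6, a related ligand, rose from 3270.3 ± 127 to 5646 ± 136 (0.79, limma adjusted p 1.58e-08), whereas BMP5 was at 538, 665 and 552 in WT and 14.04, 4.50 and 13.3 in KO 1 (-5.79, limma adjusted p 6.04e-11). The pathway list as a whole had 17 of 42 genes higher and 7 lower, beside 18.0% and 17.5% of all genes (median 0.15). GDF15, a stress-induced ligand of this superfamily, fell from 1740.2 ± 31.2 to 397 ± 12.7 (-2.13, limma adjusted p 2.8e-11), and BAMBI, a decoy receptor, from 61.5 ± 15.5 to 1.34 ± 1.18 (limma adjusted p 1.81e-08).

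**Figure D4:**
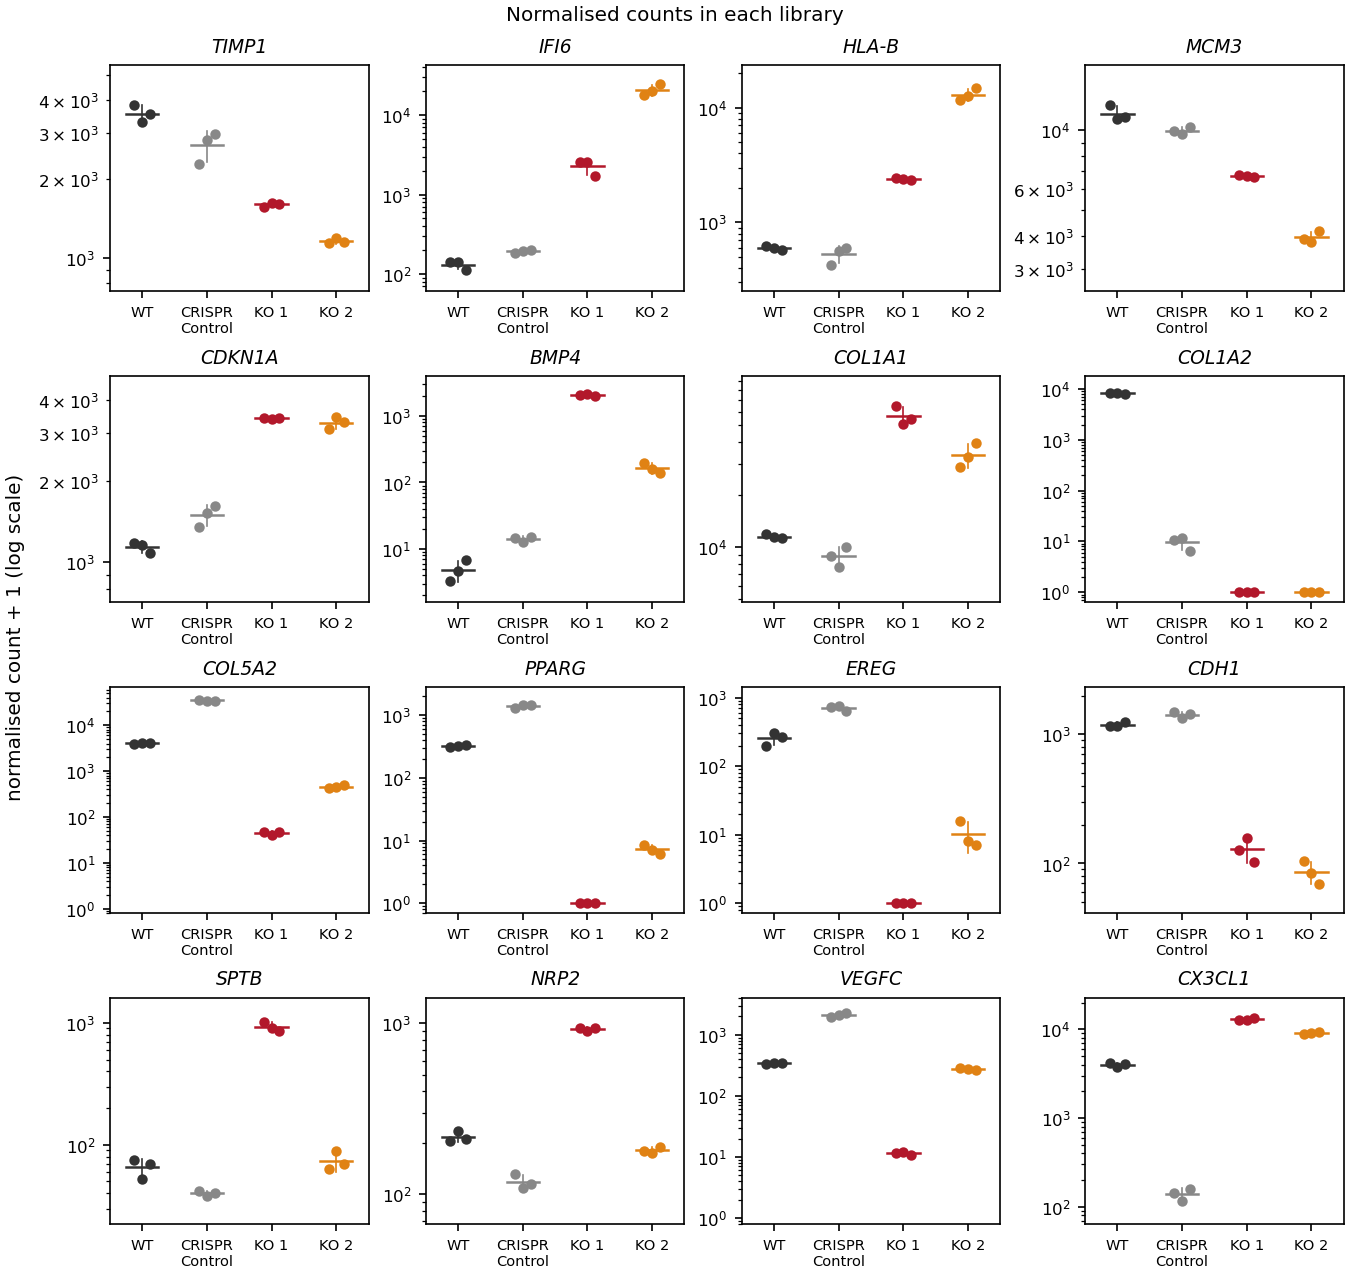
Each panel shows a gene's normalised count plus 1 on a log axis in the 12 libraries, 1 point a library, with the mean as a bar and the SD as a line for each line of cells. BMP4, SPTB and NRP2 are highest in KO 1, COL1A2, PPARG and EREG lie at 0 in all 3 KO 1 libraries, and IFI6, HLA-B and MCM3 lie between WT and KO 2.

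Chains of the fibrillar collagens moved in opposite directions. COL1A1, the major chain of type I collagen, was at 11882, 11389.7 and 11199 in WT and 64798, 50821 and 54216 in KO 1, 4.93-fold higher (2.29, SE 0.11, limma adjusted p 1.22e-11). COL1A2, its partner chain, was at 8506, 8301 and 7845 in WT and had 0 reads in every KO 1 library. Against a floor of 3 reads per library this is at least 2660.3-fold lower. CRISPR Control held 8.56 ± 2.72 and KO 2 held 0, so WT was the only line of the 4 with an abundant COL1A2 transcript. COL5A1 rose from 699 ± 52.7 to 4062 ± 222 (2.54, limma adjusted p 6.36e-13), and its partner COL5A2 was at 3869.8, 4165 and 4108 in WT and 46.5, 39.4 and 46.8 in KO 1 (-6.49, SE 0.09, limma adjusted p 4.61e-20). COL3A1, the next gene to COL5A2 on chromosome 2, was at 155, 147 and 136 in WT and 0, 1.13 and 0 in KO 1 (limma adjusted p 5.66e-13). In CRISPR Control both were above WT, COL5A2 at 34687 ± 1635 and COL3A1 at 9786 ± 105 (log2 3.10 and 6.06 in that order, limma adjusted p 8.92e-16 and 1.38e-12). COL4A1 and COL4A2, which share a promoter region on chromosome 13 and were named after their values were seen, fell from 81.7 ± 6.48 to 0.375 ± 0.650 and from 123 ± 10.7 to 2.29 ± 1.23 (limma adjusted p 7.22e-10 and 1.8e-08). Over the 31 collagen genes tested, 8 were higher and 17 lower in KO 1, beside 18.0% and 17.5% of all genes, with a median of -0.56, while the median of CRISPR Control against WT was 0.83.

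Other matrix genes were also divided, with 18 of 42 higher and 13 lower, beside 18.0% and 17.5% of all genes (median 0.21). EFEMP1, a fibulin of elastic tissue, was at 54.3, 51.8 and 51.4 in WT and 1133, 1190.4 and 1270.3 in KO 1 (4.48, limma adjusted p 1e-09). FMOD, a proteoglycan that binds collagen and is not in that list, was at 2.26, 3.64 and 2.86 in WT and 116, 107 and 109 in KO 1 (4.84, limma adjusted p 3.12e-10). TGFBI, an abundant adhesion protein, rose from 3005 ± 106 to 12546 ± 78.4 (2.06, limma adjusted p 1.13e-14), and the proteoglycan SPOCK1 from 230.4 ± 17.01 to 1789.5 ± 107 (2.95, limma adjusted p 8.23e-14). TNC and BGN, matrix proteins of remodelling tissue, fell from 212 ± 16.3 to 8.61 ± 5.63 and from 79.9 ± 15.02 to 0.375 ± 0.650 (limma adjusted p 8.68e-09 and 9.47e-11). Among metalloproteinases and TIMPs, the enzymes TIMP1 restrains and its relatives, 15 of 36 genes were higher and 11 lower (median 0.09). MMP7, which cuts matrix and cell surface proteins, was at 9.05, 17.3 and 20.96 in WT and 126, 113 and 99.8 in KO 1 (2.83, limma adjusted p 2.66e-05), with 13.3 ± 7.17 in KO 2 and 12.03 ± 5.004 in CRISPR Control. ADAM8 rose from 61.7 ± 10.9 to 365 ± 13.5 (2.56, limma adjusted p 3.87e-11), while the collagenase MMP1 fell from 25.5 ± 2.72 to 5.17 ± 3.39 (-2.25, limma adjusted p 4.92e-06). TIMP2 fell slightly, by 0.29 on the log2 scale (limma adjusted p 0.00457).

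A set of genes went from a clear level in WT to no more than 3 reads in any KO 1 library. Of the tested genes, 16 had a WT mean of at least 100 and met that limit, chosen after the values were seen, and 11 of them had 0 reads in all 3 KO 1 libraries. Beside COL1A2 these included RGS4, a brake on G protein signals (1145 ± 50.4 in WT, at least 371-fold lower), ALDH1A1, which makes retinoic acid (773 ± 20.8, at least 250.3-fold lower), and PPARG, a nuclear receptor of lipid metabolism (322 ± 13.4, at least 104-fold lower). KANK4, a scaffold at focal adhesions (306 ± 26.96), INA, a neuronal intermediate filament protein (282 ± 15.1), EREG, a ligand of the EGF receptor (256 ± 54), and NTS, a secreted peptide (103 ± 16.4), likewise had 0 reads in KO 1, as did the noncoding RNAs UCA1 (359 ± 42.4) and LINC02154 and the gene PRND. The other 5 were CXCL5, COL3A1, AREG, BRINP3 and ZNF608, with 1 to 3 reads in at least 1 KO 1 library. In KO 2, 15 of the 16 had a mean under 10. In CRISPR Control 8 of the 16 had a mean of at least 100, among them PPARG at 1389.8 ± 77.4 (log2 2.10 against WT, limma adjusted p 7.46e-08), INA at 1453 ± 71.8 and NTS at 2527 ± 411. The 16 were picked by their loss in KO 1. The same shares over all tested genes were not counted, so nothing is read from these counts. The reverse pattern, a KO 1 mean of at least 100 with no more than 3 reads in any WT library, was met by PRELP alone, a matrix proteoglycan, at 2.30 ± 0.412 in WT and 131 ± 7.60 in KO 1.

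Several of the lost genes are neighbours on chromosome 4. In the stretch chr4:73706323-74794523, which holds the CXC chemokine cluster and the EGF receptor ligands EREG, AREG and BTC, 9 genes were tested, of which 8 were lower in KO 1 and 0 higher, beside 17.5% and 18.0% of all genes. The stretch was drawn after the values were seen, around lost genes and with a lower gene at each end, so nothing is read from that count. EREG was at 197, 303 and 269 in WT and 0 in KO 1. AREG, a related ligand, was at 91.7, 103 and 134 in WT and 0, 0 and 0.883 in KO 1 (limma adjusted p 3.79e-10). BTC fell from 64.8 ± 6.27 to 0.750 ± 1.30 (limma adjusted p 2.11e-07). CXCL5, a neutrophil attractant, was at 187, 369 and 289 in WT and 1.08, 0 and 0 in KO 1 (limma adjusted p 1.32e-08). CXCL1, another, was at 503, 605 and 536 in WT and 82.1, 104 and 104 in KO 1 (-2.50, limma adjusted p 3.43e-10). CXCL6 and CXCL8 (named after their values were seen) fell by 1.49 and 0.98 on the log2 scale (limma adjusted p 0.0264 and 0.00391), and MTHFD2L, an enzyme of folate metabolism that lies between CXCL5 and EREG, did not pass the test (-0.31, limma adjusted p 0.138). CRISPR Control held 93.9 ± 19.01 for AREG, 708 ± 59.8 for EREG, 13.4 ± 9.31 for CXCL5 and 3.22 ± 1.999 for BTC. The receptors EGFR and ERBB2 did not pass the test (-0.16 and -0.00087, limma adjusted p 0.293 and 0.995). The EGF receptor list had 5 of 33 genes higher and 8 lower, shares near those of all genes (median -0.06).

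Among other secreted signals, CX3CL1, a membrane-bound chemokine that recruits NK and T cells, was at 4130.2, 3733 and 4041 in WT and 12679, 12855 and 13406 in KO 1, 3.27-fold higher (1.71, limma adjusted p 3.32e-11). In CRISPR Control it stood at 139 ± 21.9. IL32 rose from 131 ± 13.4 to 469 ± 11.7 (1.84, limma adjusted p 7.26e-10) and IL18 fell from 241 ± 10.7 to 54.04 ± 11.7 (-2.16, limma adjusted p 1.38e-09). Of 23 chemokine, interleukin and colony-stimulating factor genes, 9 were higher and 5 lower, beside 18.0% and 17.5% of all genes. NF-kB subunits and feedback genes were higher in 10 of 24 and lower in 2, and the subunits RELA and NFKB1 did not pass the test (0.03 and 0.05, limma adjusted p 0.803 and 0.617). TNFAIP3, the A20 feedback inhibitor, rose from 369 ± 16.98 to 639 ± 32.01 (0.79, limma adjusted p 4.55e-06).

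Several genes of cell contacts fell steeply. CDH1, E-cadherin of epithelial junctions, was at 1151, 1163 and 1254 in WT and 125, 158 and 102 in KO 1, 9.28-fold lower (-3.23, SE 0.15, limma adjusted p 4.19e-12), and KO 2 held 84.9 ± 17.1. CDH3, P-cadherin, and PKP2, a desmosomal plaque protein, fell from 427 ± 38.6 to 7.76 ± 4.13 and from 297 ± 33.05 to 9.69 ± 4.65 (-5.71 and -4.92, limma adjusted p 1.86e-12 and 3.94e-11). EPCAM did not pass the test (0.10, limma adjusted p 0.447), and the keratin KRT19 rose from 15707 ± 984 to 24591 ± 1628 (0.65, limma adjusted p 9.24e-05). Over 35 epithelial markers, 9 were higher and 11 lower, and over 33 mesenchymal and EMT genes 13 were higher and 8 lower, beside 18.0% and 17.5% of all genes, so both lists held members that moved either way. SNAI2, a repressor of CDH1, was at 88.3, 105 and 101 in WT and had 0 reads in KO 1. CDH2, N-cadherin, fell from 571 ± 17.05 to 93.7 ± 10.1 (-2.60, limma adjusted p 5.12e-13), ZEB1 did not pass the test (0.07, limma adjusted p 0.613), and VIM rose by 0.40 on the log2 scale (limma adjusted p 0.00101). Of 43 genes of integrins, laminins and focal adhesions, 16 were higher and 12 lower. ITGA2, a collagen receptor subunit, rose from 2373 ± 219 to 5462 ± 91.7 (1.21, limma adjusted p 4.82e-08), and LAMA4, a laminin chain of basement membranes, fell from 22.04 ± 3.93 to 1.01 ± 1.09 (limma adjusted p 1.65e-07).

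Genes that guide cells and axons were more often lower, with 24 of 54 Eph, ephrin, semaphorin and plexin genes lower and 6 higher, beside 17.5% and 18.0% of all genes (median -0.29). SEMA3E and SEMA3D, secreted semaphorins, fell from 112 ± 19.8 to 5.65 ± 4.90 and from 57.03 ± 11.2 to 3.75 ± 3.68 (-4.32 and -3.87, limma adjusted p 2.27e-08 and 1.7e-07). NRP2, a coreceptor of semaphorins and VEGF-C, was at 205, 234 and 209 in WT and 935, 900.2 and 935 in KO 1 (2.09, limma adjusted p 3.37e-11). In the Wnt pathway 15 of 43 were higher and 12 lower, with DKK3, a secreted modulator, up from 5851 ± 191 to 16102 ± 225 (1.46, limma adjusted p 4.83e-12) and the receptor ROR1 down from 280.5 ± 26.8 to 46.3 ± 8.53 (-2.59, limma adjusted p 5.22e-10). YAP and TEAD targets showed no common direction, with 5 of 29 higher and 7 lower. Their best known members differed, CCN2 rising from 9448 ± 205 to 19022 ± 455 (1.01, limma adjusted p 1.64e-09) and CCN1 not passing the test (-0.02, limma adjusted p 0.836).

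The imprinted pair H19 and IGF2 fell together. H19, a noncoding RNA expressed from the maternal allele, was at 9076, 8625 and 8704 in WT and 616, 536 and 424 in KO 1 (-4.08, limma adjusted p 1.97e-15), while CRISPR Control held 91894 ± 8404. IGF2, the growth factor beside it on chromosome 11 and expressed from the paternal allele, was at 422, 423 and 451 in WT and 28.1, 33.8 and 44.2 in KO 1 (-3.60, limma adjusted p 5.2e-13). Of 22 genes of the IGF and plasminogen systems, 8 were higher and 6 lower, beside 18.0% and 17.5% of all genes. The binding proteins IGFBP3 and IGFBP4 rose from 274 ± 26.8 to 1668 ± 124 and from 13436 ± 589 to 31699 ± 1034 (2.60 and 1.24, limma adjusted p 2.46e-11 and 4.93e-09), and IGFBP2 fell from 835 ± 38.7 to 83.1 ± 8.26 (-3.32, limma adjusted p 8.23e-14). PLAU, the urokinase that activates plasminogen, fell from 12206 ± 863 to 7298 ± 209 (-0.74, limma adjusted p 9.31e-08).

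Genes of the ribosome and the respiratory chain moved little. Cytosolic ribosomal protein genes were higher in 4 of 78 and lower in 3, and nuclear genes of the respiratory chain higher in 3 of 73 and lower in 7, both far under the 35.5% of all genes. RNA splicing genes were lower in 25 of 67 and higher in 1, beside 17.5% and 18.0% of all genes, with a median of only -0.16. Their log2 fold changes ran from -3.31 to 0.26, and 1 member, not named here, was called lower by at least 1. PRPF19, a spliceosome ligase, fell by 0.50 on the log2 scale (limma adjusted p 2.53e-05). Heat shock proteins and chaperonins were lower in 20 of 29 and higher in 2 (median -0.27). HSPD1, the mitochondrial chaperonin, fell from 30037 ± 1277 to 23022 ± 858 (-0.38, limma adjusted p 0.00106), and FKBP4, a cochaperone of HSP90, from 9341 ± 502 to 5936 ± 141 (-0.65, limma adjusted p 1.39e-06). Transcripts of the mitochondrial genome were higher in 6 of 15 and lower in 0 (median 0.27). The ribosomal RNA MT-RNR2 was at 10552, 11275 and 10618 in WT and 20075, 23536 and 20986 in KO 1 (0.99, limma adjusted p 2.55e-08), while MT-ND2 did not pass the test (0.05, limma adjusted p 0.785).

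Metabolic and stress lists held members that moved either way, with shares to be read against the 18.0% higher and 17.5% lower of all genes. The amino acid transporter SLC7A5 was at 15624, 14379 and 15634 in WT and 6721, 6247 and 6899 in KO 1 (-1.20, limma adjusted p 2.08e-09), and its partner SLC3A2 fell from 6244 ± 382 to 4087 ± 233 (-0.61, limma adjusted p 2.51e-05). Both are targets of ATF4, whose list had 8 of 39 higher and 10 lower, and ATF4 itself and the chaperone HSPA5 did not pass the test (0.17 and -0.02, limma adjusted p 0.0597 and 0.887). NRF2 antioxidant targets were lower in 12 of 27 and higher in 4, with NQO1 down by 0.24 on the log2 scale (limma adjusted p 0.00773). Cholesterol genes were higher in 7 of 36 and lower in 12, with the exporter ABCA1 up by 1.29 on the log2 scale (limma adjusted p 3.09e-07). Glycolysis and hypoxia genes were higher in 10 of 41 and lower in 7, near the shares of all genes. SLC2A3, a glucose transporter, fell from 68.5 ± 9.38 to 2.98 ± 2.74 (-4.49, limma adjusted p 4.69e-07), and SLC2A1, another, did not pass the test (-0.05, limma adjusted p 0.69).

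Of 20 genes of fluoropyrimidine and gemcitabine metabolism, 4 were higher and 10 lower, beside 18.0% and 17.5% of all genes (median -0.17). DPYD, the enzyme that breaks down fluorouracil, was at 295, 355 and 279 in WT and 2.16, 9.002 and 3.53 in KO 1 (-5.89, limma adjusted p 1.21e-11), and CDA, which inactivates gemcitabine, fell from 32.1 ± 6.49 to 16.2 ± 3.36 (-0.94, limma adjusted p 0.0195, and 0.0902 and 0.0899 without KO 1 replicate 3 or WT replicate 1). Lysosome and cathepsin genes were higher in 17 of 36 and lower in 2. CTSB, an abundant cathepsin, rose from 11758 ± 378 to 20607 ± 172 (0.81, limma adjusted p 1.01e-08), whereas MITF, a regulator of lysosome genes, fell from 228 ± 49.3 to 16.9 ± 3.24 (-3.67, limma adjusted p 4.83e-12). HOX genes were higher in 11 of 26 and lower in 1, with HOXB13 up from 324 ± 30.5 to 526 ± 24.7 (0.70, limma adjusted p 2.6e-05). DNA methylation enzymes and repeat silencers were lower in 12 of 33 and higher in 2. DNMT1, the maintenance methyltransferase, fell from 13571 ± 635 to 10207 ± 263 (-0.41, limma adjusted p 0.000212). Cell death genes were higher in 10 of 36 and lower in 4, and BMF, a proapoptotic BH3 protein, was at 455, 446 and 437 in WT and 2052, 1998 and 1988 in KO 1 (2.17, limma adjusted p 2.77e-13).

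Some genes set KO 1 apart from all 3 other lines, differing from each in the same direction by the direct contrasts. With a mean of at least 100 over the 12 libraries, 443 of 11472 genes with a unique symbol were higher (3.86%) and 378 lower (3.29%) in KO 1 in this sense. Beside BMP4, the clearest high ones were ALPG, SPTB, NRP2, ST3GAL5 and GPC4. ALPG, a placental-type alkaline phosphatase whose reads near-identical paralogs may share, was at 163, 168 and 165 in WT and 2899, 2298 and 2539 in KO 1 (3.95, limma adjusted p 1.17e-13), with 559 ± 75.7 in KO 2. SPTB, the erythroid spectrin beta chain, was at 73.6, 51.8 and 68.6 in WT and 1019, 914 and 853 in KO 1 (3.84, limma adjusted p 2.05e-12), while KO 2 and CRISPR Control held 73.1 ± 13.8 and 38.98 ± 1.98. ST3GAL5, which makes the ganglioside GM3, rose from 169 ± 20.7 to 1943 ± 77.4 (3.52, limma adjusted p 1.94e-14). GPC4, a cell surface heparan sulfate proteoglycan, rose from 459 ± 27.6 to 1859.8 ± 98.2 but stood at 72.3 ± 15.4 in KO 2, so the clones lay on opposite sides of WT. On the low side were AK5, CLMP, VEGFC, PHLDB2, COL11A1 and CORO2B. VEGFC, a growth factor of lymphatic vessels, was at 336, 345 and 337 in WT and 10.8, 11.3 and 9.72 in KO 1 (-4.88, limma adjusted p 6.01e-16), with 273 ± 12.5 in KO 2 and 2119 ± 177 in CRISPR Control. PHLDB2, which anchors microtubules near focal adhesions, was at 337, 369 and 302 in WT and 10.8, 1.13 and 7.95 in KO 1 (-5.79, limma adjusted p 1.08e-09). AK5, an adenylate kinase, fell from 185 ± 19.4 to 3.42 ± 2.76, and CLMP, a junctional adhesion protein, from 182 ± 17.7 to 3.57 ± 3.74 (-5.58 and -5.62, limma adjusted p 2.63e-11 and 1.98e-10). COL11A1, a minor fibrillar collagen, was at 159.6, 171 and 172 in WT and 14.04, 3.38 and 6.18 in KO 1, and at 226 ± 22.1 in KO 2, and CORO2B, an actin-binding coronin, fell from 38.6 ± 0.852 to 1.79 ± 2.38.

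The other genes with the 12 highest and 12 lowest changes, at a mean of at least 100, span several functions. HOPX, an unusual homeodomain protein, was at 10.2, 8.18 and 12.4 in WT and 202, 232 and 239 in KO 1 (4.34, limma adjusted p 4.59e-12), and SEL1L3, RRAD, ZNF804A and TMEM229B were higher by 3.65, 3.69, 5.39 and 3.75 on the log2 scale (limma adjusted p 1.78e-15, 2.26e-08, 1.43e-12 and 9.89e-06). AMIGO2, an adhesion molecule, was at 728, 687 and 698 in WT and 1.08, 2.25 and 3.53 in KO 1 (-7.82, limma adjusted p 1.43e-12). PDE10A, a cyclic nucleotide phosphodiesterase, and RAB27B, a GTPase of secretory vesicles, fell from 506 ± 50.7 to 4.32 ± 5.04 and from 582 ± 70.4 to 4.77 ± 0.546 (-6.98 and -6.66, limma adjusted p 5.81e-11 and 9.85e-15). Among the most abundant genes, with a mean of at least 5000, the calcium pump ATP2B4 rose from 2326 ± 95.04 to 7391 ± 155 (1.67), and CRABP2, a retinoic acid carrier, and MFGE8, a bridge between dying cells and phagocytes, fell to 1399 ± 56.9 and 8367 ± 58.2 from 3559 ± 224 and 18544 ± 901 (-1.35 and -1.15, limma adjusted p 1.31e-10, 1.64e-09 and 1.29e-09 in that order).

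The calls were not spread evenly along the genome. On chromosome 14, where BMP4 and SPTB lie, 127 of 506 tested genes were higher (25.1%) and 48 lower (9.49%), and on chromosome 16 it was 93 of 736 higher (12.6%) and 185 lower (25.1%), beside 18.0% and 17.5% of all genes. The medians were small, 0.12 and -0.11 on the log2 scale, and CRISPR Control against WT had a median of -0.31 on chromosome 14 and -0.03 on chromosome 16. Of 293 windows of 10 Mb with at least 10 tested genes, the lowest medians were those of chr3:10000001-20000000 (-0.31, 26 of 54 genes lower), where PPARG lies, of chr11:50000001-60000000 (-0.24) and of chr3:50000001-60000000 (-0.21). The most changed genes in the last 2 were SLC43A1, an amino acid transporter (-1.70), and TNNC1, a troponin subunit (-3.002). In these 3 windows, in that order, the median of KO 1 against KO 2 was 0.02, -0.01 and 0.03. That of CRISPR Control against WT was 0.40, 0.19 and 0.36. The highest medians were those of chr6:160000001-170000000 (0.30), chr1:190000001-200000000 (0.28) and chr11:100000001-110000000 (0.27), led by UNC93A (2.01), the potassium channel KCNT2 (1.86, and 0.88 with an adjusted p of 0.0581 without WT replicate 3) and SLN, an inhibitor of the calcium pump of muscle (3.22).

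**Figure D5:**
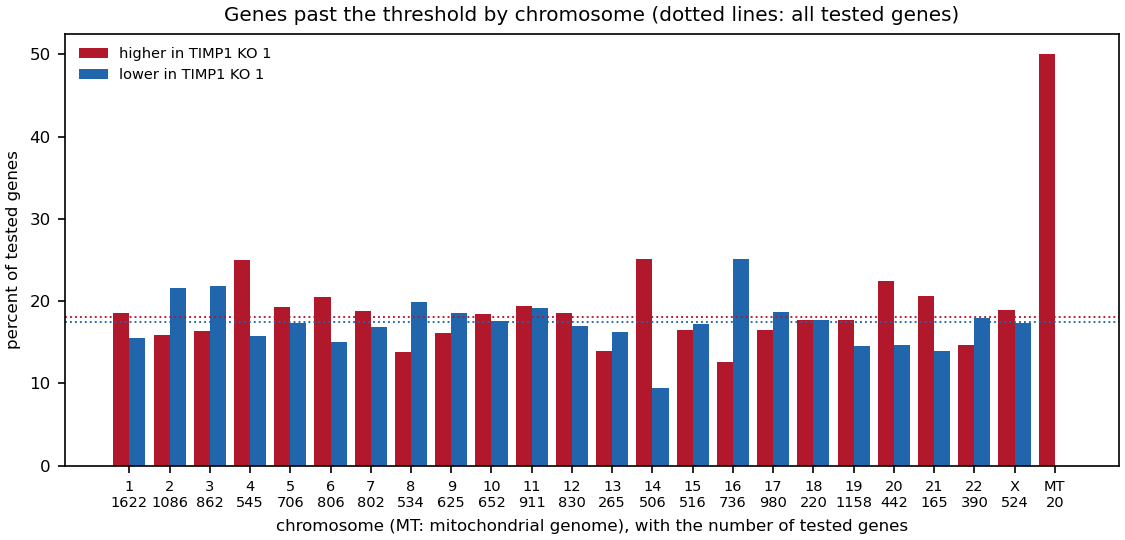
Bars give the percent of tested genes (number under each chromosome) that were higher or lower in KO 1 than in WT, with dotted lines at the 18.0% and 17.5% of all tested genes. Chromosome 14 leans to higher (25.1%) and chromosome 16 to lower (25.1%), and the mitochondrial genome has 10 of 20 genes higher and 0 lower.

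Shares called also differed between gene classes. Of 13221 protein-coding genes 39.7% were called, of 2024 lncRNA genes 17.5%, with 239 higher and 115 lower, and of 442 processed pseudogenes 5.88%. Depth limits calls among genes with few reads, and the levels of these classes were not compared. The shares therefore do not compare the size of change between classes. Promoters of genes that fell by at least 3 on the log2 scale were compared with others by their CpG content, after the values were seen and with no test. The ratio of observed to expected CpG was at least 0.6 in 59 of their 130 promoters (45.4%), in 16 of 27 promoters of genes that rose by as much (59.3%) and in 82.2% of 11486 promoters of tested genes and 49.0% of all 27305 promoters. Of the 12 genes with a RefSeq promoter that had gone from a WT mean of at least 100 to no more than 3 reads, 4 reached that ratio.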

How the data were processed

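RNA from 12 libraries of 4 MIA PaCa-2 lines, 3 a line, was sequenced. Per the study's methods, the authors trimmed reads with Cutadapt, aligned them to GRCh38 with STAR, counted the reads of each gene with featureCounts, and scaled these counts with DESeq2 size factors. The deposited signal values are these normalised counts. In each library all values were whole multiples of 1 step to within 0.01 reads, so whole reads were recovered (26908701 to 36093563 per library). Intervals from such counts cover counting error only, and 3 reads per library were the floor for a gene at 0. One blank line and 4 columns of line means were not used. Groups came from the titles.

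Genes with a mean of at least 10 over the 12 libraries (15987 of 63086) were tested with limma 3.58.1 (R 4.3.3, moderated statistics with a trend, two-sided) on log2(normalised count + 1), with the 4 lines as means in 1 fit and Benjamini-Hochberg adjustment over all tested genes at a threshold of 0.05. edgeR 4.0.16 and DESeq2 1.42.0 on the recovered reads, other scalings, filters and pseudocounts, a replicate block and leaving out each library were alternatives. Positions and symbols came from GENCODE 44, which matched 99.1% of gene identifiers, and promoters from RefSeq (GRCh38.p14). Calculations ran in Python 3.11.15.

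The genes and the 38 lists were chosen with earlier results of these data known. Named were TIMP1, the 12 highest and 12 lowest separated changes at a mean of at least 100, the 5 highest and 5 lowest of those with a mean of at least 5000, the first 2 and the 3 highest and 3 lowest called members of each list, the 6 highest and 6 lowest genes that differed from all 3 other lines, and the leading gene of the 3 highest and 3 lowest windows of 10 Mb. Of these, a selection is described. Some of the items so chosen are not reported here. A gene named by another route is said to have been chosen after its values were seen.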

Additional observations from a re-analysis of the deposited data

How the results depend on the processing

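TIMP1 kept its direction and its side of the threshold under all alternatives, with log2 fold changes from -1.20 to -1.09 when 1 library was left out. The count of called genes stayed within 1.5 times the reported 5682 under every alternative but one. With an absolute log2 fold change of at least 1 it was 1312 (661 higher, 651 lower). It was 5796 with edgeR, 5894 with DESeq2, 7087 with only the 6 libraries of WT and KO 1, and between 4581 and 6229 when 1 library was left out. Among named genes, RPL3, RPL4 and ERBB2, none of which passed the test, changed sign under quantile normalization (-0.0517, -0.0382 and 0.0272). When 1 library was left out, further values that did not pass the test took both signs. Their log2 fold changes ran from -0.0198 to 0.145 for MT-ND2, from -0.0682 to 0.0284 for HSPA5, from -0.0567 to 0.0252 for CCN1 and from -0.0234 to 0.0165 for ERBB2. ATF4 passed the test with DESeq2 (adjusted p 0.0492), under quantile normalization and with only the 6 libraries, and CDK1 and EGFR passed with only the 6 libraries. Of the 38 list medians, 10 to 14 moved by more than the SD between the KO 1 libraries when 1 WT library was left out, 10 or 11 when 1 KO 1 library was, and 13 under quantile normalization. Medians changed sign for the EGF receptor list under quantile normalization (0.03) and for integrins with a minimum mean of 50 (0.16). That of NK cell receptor and checkpoint ligands did so under quantile normalization (-0.03) and without KO 1 replicate 2 (-0.01) or WT replicate 2 (-0.02). Those of respiratory chain, ATF4 and epithelial genes took both signs when 1 library was left out. The median of interferon-stimulated genes was 0.98 with a pseudocount of 10, and between 1.23 and 1.37 when 1 library was left out, and that of DNA replication then lay between -0.58 and -0.53.

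A fit with the replicate number as a block called 5602 genes (2858 higher, 2744 lower). The correlations of the deviations of same-numbered WT and KO 1 libraries were -0.02, -0.01 and 0.01, and those of all same-numbered pairs ran from -0.13 to 0.16. Such values cannot show whether libraries of the same number were handled together. The block changed no call among the named genes. Depth limits calls among genes with few reads, and 134 of the tested genes had no more than 3 reads in any KO 1 library.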
